A study of Danio rerio with 10 samples.

Results

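The prechordal plate is the group of cells at the dorsal side of the zebrafish gastrula that moves in first, ahead of the notochord, and lies under the future forebrain. It forms from the cells of the dorsal organizer that receive the strongest Nodal signal, it secretes proteins that bind and block BMP and Wnt ligands, and it later gives rise to the hatching gland. The transcription factor Goosecoid (gsc) and the BMP antagonist Chordin (chrd) mark it. Here its cells are those that the deposited annotation names Prechordal Plate, 143 of 8226 cells in all. Of these, 27 of 2420 cells came from 30% epiboly A, 16 of 632 from 30% epiboly B, 92 of 3068 from 50% epiboly A, 5 of 251 from 50% epiboly B and 3 of 1855 from dome. The comparisons rest on the 140 cells of the 4 epiboly libraries, against all other cells of the same libraries.

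All embryos were wild type and were injected at the one-cell stage with 20 mM 4sUTP, a uridine analog that marks RNA transcribed after injection, together with GFP mRNA, fully labeled RFP mRNA and 1 of 2 mCherry mRNAs. Cells were pooled from many embryos at dome, 30% epiboly or 50% epiboly, captured by Drop-seq, and their RNA treated on beads with 10 mM iodoacetamide (IAA), which turns the analog into T-to-C changes in the reads. Labeled copies are therefore newly transcribed (zygotic) and unlabeled copies mainly pre-existing (maternal), and the labeled fraction is the labeled share of molecules (unique molecular identifiers, UMIs). The paper states that estimates from single cells with few reads can be too low. Unlabeled levels below can therefore include some newly transcribed copies. Each stage of epiboly has 2 libraries, A and B, taken as replicates, so p-values measure the spread between libraries, and A and B also differ in how the embryos were dissociated according to the methods of the study. The 5 libraries that were not treated with IAA were not analysed here.

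The prechordal plate cells of the 4 epiboly libraries summed to 89652, 74872, 292086 and 10453 UMIs, in the order 30% epiboly A, 30% epiboly B, 50% epiboly A and 50% epiboly B, and every set of 4 values below keeps this order. In 50% epiboly B a single UMI equals 95.7 CPM, the scale of a gene's UMIs relative to all UMIs of the same sum, and a count of 0 allows a level of up to 33.5, 40.1, 10.3 and 287.0 CPM (3 UMIs, counting error only). The median cell of the prechordal plate held 3273, 4201.5, 2630.5 and 2383 UMIs, against 2432, 4054, 2411 and 2058.5 in the other cells. It also stood later in the deposited pseudotime in every library, with medians of 325.8, 327.9, 335.7 and 335.0 against 313.0, 316.1, 329.4 and 321.6. The authors derived cell types and pseudotime from total expression, so differences in total expression between these cells and the rest are described here without a test. One cell barcode occurred in 2 libraries, and it belonged to no prechordal plate cell.

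The cells carried the markers by which the authors named the cluster, gsc and chrd among them, so these levels describe the annotation. The gsc transcript (ENSDARG00000059073) was at 5075, 5769.8, 3982 and 4114 CPM in prechordal plate cells and at 86.8, 68.5, 63.1 and 32.9 CPM in all other cells. The chrd transcript (ENSDARG00000006110) was at 1205, 1082, 1119.5 and 383 CPM against 67.1, 46.4, 59.3 and 29.3 CPM. For both genes the prechordal plate sum lay above that of the other cells in every library. Single cells were not separated in this way, since 40.7% of 489 notochord cells held a gsc UMI and 62.0% a chrd UMI. A gsc UMI was present in 138 of 140 cells (98.6%, exact 95% interval 94.9% to 99.8%) and a chrd UMI in 118 (84.3%, 77.2% to 89.9%). Enveloping layer cells, which should lack both and had a median of 2540 UMIs against 3054.5, held a gsc UMI in 3.18% and a chrd UMI in 5.30% of 283 cells. With every cell thinned to 1000 UMIs, which left out 9 prechordal plate and 31 enveloping layer cells, the shares were 96.2% and 1.59% for gsc and 58.0% and 3.57% for chrd.

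Of 7 markers (gsc, chrd, frzb, otx1, lhx1a, fzd8b and nog1), all 140 cells held at least 1, 135 held 3 or more and 20 held all 7, with a median of 5. Single cells spread widely around these sums. In 50% epiboly A, gsc ranged from 0 through a median of 3837 to 11768 CPM per cell, and chrd from 0 through 1073 to 4875 CPM. In 30% epiboly A the cell with least gsc was at 703 CPM, the median cell at 4618 and the highest at 9267. Only 2 cells had no gsc UMI, and 117 held gsc and chrd together.

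The share of cells named prechordal plate did not separate the stages. It was 1.116% (exact 95% interval 0.737% to 1.62%) and 2.53% (1.45% to 4.08%) at 30% epiboly, and 3.00% (2.42% to 3.67%) and 1.99% (0.650% to 4.59%) at 50% epiboly, so the stages overlapped. The mean was 0.67 percentage points higher at 50% epiboly (two-sided exact permutation p = 0.667, n = 2 libraries a stage, smallest p possible 0.33). The share rose by 1.88 points within the A libraries and fell by 0.54 points within the B libraries. Without 30% epiboly A the difference was -0.0363 points, and without each of the other libraries in turn it was 0.168 to 1.38 points.

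Genes of the organizer and of the anterior axial mesoderm led the cells. Among 1739 genes with 50 or more UMIs measured in, or expected from the other cells for, the prechordal plate sums, 55 (3.16%) were 2-fold or more higher in every library and 26 (1.5%) 2-fold or more lower in every library. These genes include those on which the cells were clustered, so the counts describe the group and test nothing. Among the 15 highest genes were transcription factors (gsc, otx2a, otx1, foxa2 and ripply1) and secreted antagonists (nog1, frzb, chrd and ism1). The others were receptors (the Wnt receptors fzd8b and fzd8a, and s1pr5a) and ligands or signal modifiers (insb, efnb2b and dusp4).

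**Figure D1:**
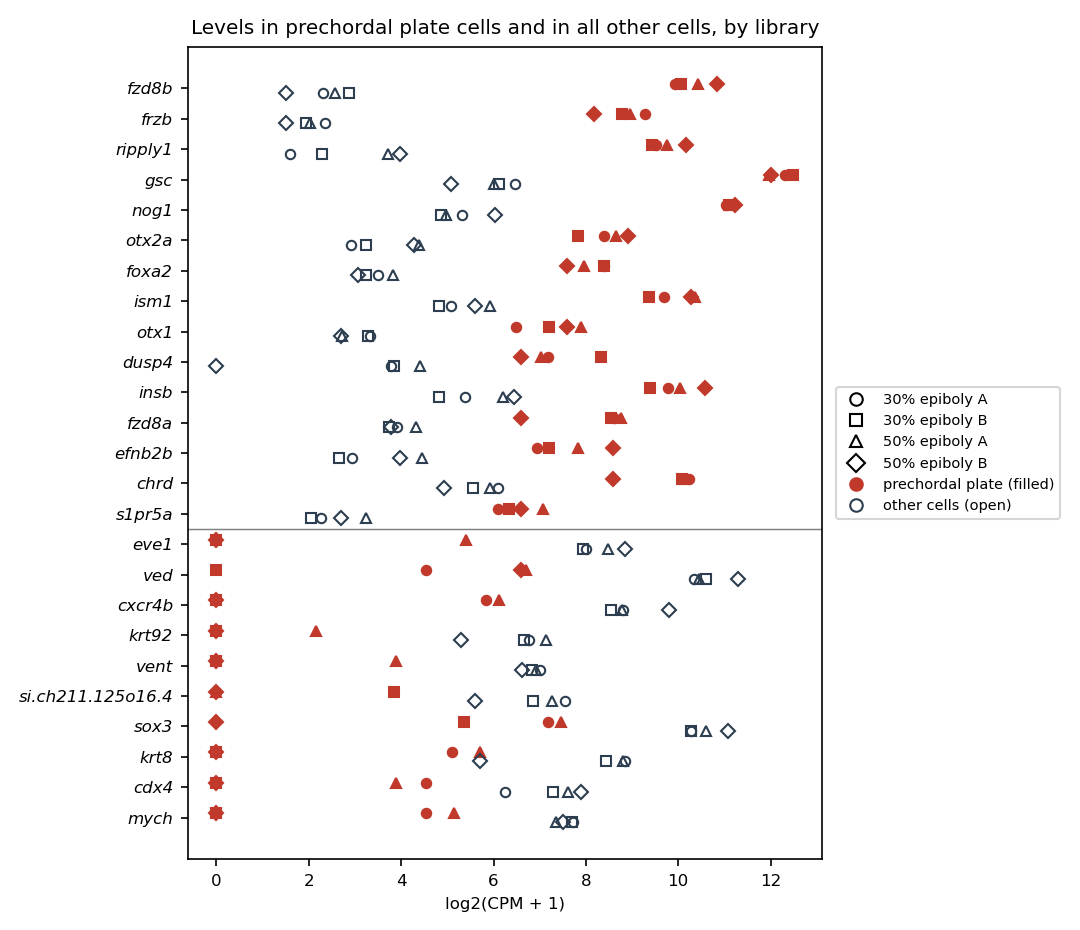
Levels of the 15 genes highest and the 10 lowest in prechordal plate cells, as log2(CPM + 1) on the x axis, in prechordal plate cells (filled) and all other cells (open) of each epiboly library (1 point per library, no error bars). The 15 upper genes separate in every library, which was a condition of their choice. Several lower genes are listed at 0 in prechordal plate cells, and in 50% epiboly B a value of 0 allows up to 287.0 CPM.

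Head transcription factors of the Otx family were present throughout. The otx2a transcript was at 335, 227, 401 and 478 CPM against 6.53, 8.43, 19.9 and 18.3 CPM in other cells, and otx1 at 89.2, 147, 236 and 191 against 9, 8.78, 5.54 and 5.49 CPM. The forkhead gene foxa2, which marks axial mesoderm and endoderm, was at 335, 334, 247 and 191 against 10.3, 8.43, 13.1 and 7.32 CPM, and its relative foxa was at 1461, 1429, 1363 and 669.7 against 107, 103, 107 and 69.5 CPM. For all 4 genes every prechordal plate value lay above every value of the other cells. Of these, otx2a, otx1 and foxa2 were picked as genes higher in every library, so their separation follows largely from that choice. Of all 1739 measured genes, 198 were higher in every library. The transcription regulator ripply1, a co-repressor adaptor known from somite formation, was at 736, 695, 863 and 1148 CPM against 2.03, 3.86, 12.1 and 14.6 CPM. klf17, which in zebrafish marks the later hatching gland, was at 335, 561, 781 and 957 CPM against 72.6, 70.9, 67.7 and 10.98 CPM. Enveloping layer cells held more, at 912, 1069 and 1371 CPM in 30% epiboly A, 30% epiboly B and 50% epiboly A. A klf17 UMI was present in 54.1% of 283 enveloping layer cells and 65.0% of 140 prechordal plate cells. The gene was therefore not particular to the prechordal plate.

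Of the 26 genes listed as prechordal plate and organizer transcription factors, 25 are in the table and 19 reached 50 measured or expected UMIs. Of these 19, 14 were 2-fold or more higher in every library (among them, beside gsc, otx1, otx2a, foxa2, foxa and klf17, also lhx1a, osr1, mixl1, snai1a, zic2a, gata5 and the protocadherin gene pcdh8) and none 2-fold lower in every library. Their median log2 ratio was 2.50, against -0.15 over the 1739 genes, of which 3.16% were 2-fold or more higher in every library. An lhx1a UMI was present in 57.1% of 140 prechordal plate cells and in 52.0% of 152 endoderm cells (24.4% and 23.9% at 1000 UMIs per cell). That gene was therefore not particular to the prechordal plate. The snail family gene snai1a, which acts in mesoderm internalization, was at 714, 254, 688 and 1148 against 108, 69.9, 158 and 113 CPM. Its paralog snai1b was at 0, 0, 3.42 and 0 CPM, and prdm1a at 0, 0, 3.42 and 0 CPM. The forkhead gene foxd3 went the other way, with 66.9, 40.1, 68.5 and 95.7 CPM against 108, 141, 136 and 115 CPM, below the other cells in every library. Its level in 50% epiboly B is that of a single UMI.

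Secreted antagonists of BMP and Wnt were the next group. The BMP antagonist nog1 differed little between libraries, with 2097, 2177, 2219 and 2392 CPM against 38.8, 28.1, 30.2 and 64.0 CPM in other cells. The Wnt antagonist frzb was at 625, 441, 496 and 287 CPM against 4.06, 2.81, 3.06 and 1.83 CPM, and dkk1b, which blocks Wnt co-receptors, at 1227, 1282, 866 and 2870.0 against 53.6, 106, 64.2 and 185 CPM. The secreted protein gene ism1 was at 825, 654, 1315 and 1244 against 32.8, 27.0, 59.7 and 47.6 CPM. All 4 were higher in every library, which for nog1, frzb and ism1 was a condition for naming them. Not every antagonist followed. The follistatin gene fsta was at 0, 0, 3.42 and 0 CPM, and szl, a ventrally expressed regulator of Chordin cleavage, had no UMI in any of the 4 sums (other cells 23.2, 40.04, 24.0 and 16.5 CPM). The BMP pseudoreceptor gene bambia was lower in every library, at 89.2, 120.2, 127 and 95.7 against 491, 355, 529.9 and 512 CPM. In 50% epiboly B the bambia level is that of a single UMI. Of 8 measured list members, 5 were 2-fold higher and 1 was 2-fold lower in every library, against 3.16% and 1.5% of all 1739 genes.

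Receptors and ligands showed the same uneven pattern. The Wnt receptor genes fzd8b, at 970.4, 1068, 1376 and 1818 against 3.92, 6.32, 4.95 and 1.83 CPM, and fzd8a, at 390.4, 374, 431 and 95.7 against 14.1, 12.3, 18.8 and 12.8 CPM, stood apart from all other cells in every library. Both were picked as genes higher in every library, so their separation follows largely from that choice. Notochord sums held 25.1, 29.6, 15.8 and 15.7 CPM of fzd8b and 43.5, 41.4, 71.0 and 0 CPM of fzd8a, below the prechordal plate in each library. The Nodal ligand gene ndr2 was at 346, 347, 404 and 95.7 against 46.7, 28.4, 54.8 and 10.98 CPM, and the fibroblast growth factor gene fgf3 at 346, 641, 322 and 574 against 39.0, 64.6, 39.3 and 25.6 CPM. Both lay above the other cells in every library. The second Nodal gene, ndr1, did not separate, at 145, 13.4, 47.9 and 0 CPM against 21.2, 14.8, 20.1 and 16.5 CPM. The chemokine receptor gene cxcr4b was lower in every library, at 55.8, 0, 68.5 and 0 against 448, 374, 440.1 and 887 CPM, and its paralog cxcr4a at 178, 53.4, 346 and 95.7 against 545, 225, 529 and 324 CPM. Being lower in every library was a condition for naming cxcr4b among the lowest genes. Of 18 measured ligand and receptor genes, 7 were 2-fold higher and 2 were 2-fold lower in every library (median log2 ratio 0.68). Over all 1739 genes the shares were 3.16% and 1.5%. The Nodal feedback antagonist lft2 was at 513, 467, 202 and 0 CPM against 16.8, 16.9, 13.5 and 10.98 CPM, with no UMI in the smallest library. In that library, 50% epiboly B, the levels of fzd8a, ndr2 and cxcr4a are those of a single UMI each.

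Among 13 measured adhesion and migration genes, 4 were 2-fold higher in every library (fscn1a, pcdh8, snai1a and cdh2), against 3.16% of all 1739 genes. The list's median log2 ratio was -0.27. Neural cadherin (cdh2) was at 156, 160.3, 226 and 95.7 against 15.7, 17.6, 28.2 and 12.8 CPM, while epithelial cadherin (cdh1) was at 167, 280.5, 164 and 191 against 405, 356, 257 and 267 CPM, below the other cells in every library. The gene of the actin-bundling protein fascin, fscn1a, was at 2588, 2417, 2564 and 2009 against 794, 768, 858 and 552 CPM. An fscn1a UMI was present in 97.1% of 140 prechordal plate cells and in 98.0% of 152 endoderm cells (90.8% and 90.1% at 1000 UMIs per cell). This gene was therefore not particular to the prechordal plate. The cadherins ran in opposite directions in all 4 libraries. In 50% epiboly B, however, the cdh2 level is that of a single UMI and cdh1 rests on few UMIs, so that library gives little evidence of direction. Of 10 measured cell cycle genes, none was 2-fold higher or lower in every library, and 5 were lower in every library by less, where 360 of all 1739 genes were lower in every library.

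The 10 lowest genes were mainly those of ventral, ectodermal and enveloping layer cells. The ventral homeobox genes eve1 and ved were at 0, 0, 41.1 and 0 CPM and 22.3, 0, 103 and 95.7 CPM, against 256, 246, 355 and 457 and 1298, 1560.4, 1403 and 2497 CPM in other cells. The SoxB1 gene sox3, an early ectoderm marker, was at 145, 40.1, 175 and 0 against 1240.4, 1240.5, 1543 and 2157 CPM. The keratin genes krt92 and krt8 of the enveloping layer were at 0, 0, 3.42 and 0 and 33.5, 0, 51.4 and 0 CPM, against 108, 99.4, 140.1 and 38.4 and 461, 344, 449 and 51.2 CPM. Keratin genes have close relatives, between which shared reads could have been split. The others were vent, cdx4, cxcr4b, mych and the unnamed gene si.ch211.125o16.4. Of the measured ventral and lateral margin markers, 5 of 8 were 2-fold lower in every library, of the enveloping layer markers 4 of 7, and of the neural ectoderm markers 2 of 4. The share over all 1739 genes was 1.5%. Not all members dropped. The margin marker osr1 was 2-fold or more higher in every library, and 1 of the 4 neural ectoderm markers was higher in every library.

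Markers of the nearest cell types did not all drop. The notochord gene noto was at 134, 307, 151 and 1148 CPM in prechordal plate cells, 653, 615, 846 and 1763 CPM in notochord cells and 163, 197, 130.2 and 437 CPM in all other cells, so the prechordal plate was below the notochord in every library and above the rest in 3 of 4. The mesoderm gene tbxta was at 625, 601, 510.1 and 765 against 624, 668, 768 and 889 CPM. Conversely, notochord cells held gsc at 654, 621, 666 and 252 CPM and chrd at 462, 485, 591 and 173 CPM, the levels next to those of the prechordal plate among types with more than 1 library for both genes. The gap between both types was wider for gsc than for chrd in every library. Against notochord cells, 43 of the 1739 genes were 2-fold or more higher and 11 lower in every library. Against endoderm cells, 30 were higher and 12 lower.

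**Figure D2:**
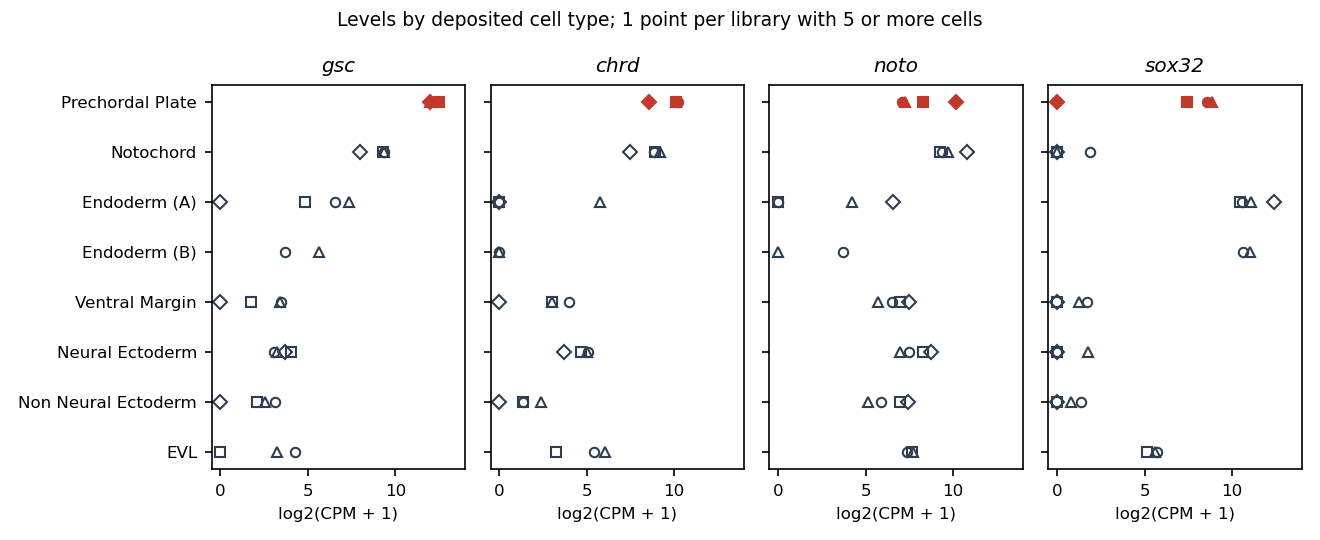
Levels of gsc, chrd, noto and sox32 as log2(CPM + 1) on the x axis in 8 deposited cell types (rows), 1 point per epiboly library with 5 or more cells of the type, with libraries marked as circle (30% epiboly A), square (30% epiboly B), triangle (50% epiboly A) and diamond (50% epiboly B). Prechordal plate cells (filled) lie highest for gsc and chrd, notochord cells come next, and sox32 is highest in endoderm with intermediate values in 3 of the 4 prechordal plate sums. The authors annotated prechordal plate cells by markers that include gsc and chrd, and endoderm cells by sox32, so these orders describe the annotation.

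The endoderm gene sox32, which drives endoderm formation downstream of Nodal, was at 379, 174, 459 and 0 CPM in prechordal plate cells, 1561, 1228, 2168 and 4577 CPM in endoderm cells and 2.64, 0, 0 and 0 CPM in notochord cells. The authors set endodermal progenitors apart by hand on sox32, according to the methods of the study. The order of endoderm and prechordal plate cells for this gene therefore follows from the annotation. A sox32 UMI was present in 32 of 140 prechordal plate cells (22.9%, exact 95% interval 16.2% to 30.7%), in 1 of 489 notochord cells and in 7 of 283 enveloping layer cells (2.47%). At 1000 UMIs per cell the shares were 18.3%, 0.217% and 2.38%. Of the 32 cells, 24 had 2 or more sox32 UMIs, and 30 also held gsc. They were found in 3 libraries, 8 in 30% epiboly A, 3 in 30% epiboly B and 21 in 50% epiboly A.

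The 32 sox32-holding cells held the prechordal plate markers, though not all at the level of the other prechordal plate cells. Their gsc level was 3046, 3250 and 4097 CPM in those 3 libraries, against 5887, 6071 and 3946 CPM in the cells without a sox32 UMI, lower in 2 of 3. Their chrd level was 1132, 1375 and 1111 CPM against 1234, 1047 and 1122 CPM. The head gene otx2a was at 39.0, 250.0 and 375 CPM against 453, 224 and 409 CPM, lower in 2 of 3. The endoderm and heart regulator gata6 was at 469, 625 and 577 CPM against 375, 254 and 283 CPM, higher in all 3. The ventral gene eve1 was at 0, 0 and 86.5 CPM, against 0, 0 and 26.9 CPM. The groups of cells were formed on sox32 within the annotated type, so these values are a description.

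A droplet that captured 2 cells can hold both mCherry mRNAs, but only where embryos injected with either were mixed, which the study did in some of its samples. A share of 0 therefore says little of doublets. No prechordal plate cell of 30% epiboly A, 50% epiboly A or 50% epiboly B held both. In 30% epiboly B 6 of 16 did (37.5%), against 23.5% of the other cells of that library. The share of other cells with both was 0.251% and 0.269% in the A libraries and 18.3% in 50% epiboly B. Any UMI of each mRNA was counted here. The paper reports both in a far smaller share of cells of its mixed samples, and the reason for the difference was not tested. Without the cells that held a sox32 UMI or both mCherry mRNAs, 52 genes were 2-fold higher and 26 were 2-fold lower in every library, in place of 55 and 26.

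Endoderm markers (9 genes) summed to 2610.1, 2738, 2588 and 1339 CPM in prechordal plate cells against 1065, 666, 992 and 613 CPM in other cells. Of 7 measured members 4 were 2-fold or more higher in every library (gata6, foxa2, mixl1 and gata5), against 3.16% of all 1739 genes. The median log2 ratio of the 7 was 2.15, and foxa2, mixl1 and gata5 also stand on the prechordal plate list. The part of endoderm cells in these sums was not tested. Germ cell markers (8 genes) summed to 792, 1629, 719 and 287.0 CPM against 805, 584, 436 and 302 CPM in other cells, higher in 2 of 4 libraries. Most of the sum in the 3 larger libraries was ddx4, the vasa gene, at 613, 1122, 558 and 95.7 CPM against 379, 382, 241 and 135 CPM, while nanos3 was at 11.2, 40.1, 6.85 and 0 against 191, 30.6, 55.2 and 27.4 CPM. The labeled fraction of ddx4 was 0%, 2.36% and 0% in prechordal plate cells and 0.895%, 0.727% and 0.595% in other cells of the 3 libraries with enough UMIs. Endoderm cells held ddx4 at 729, 1059, 551 and 465 CPM and notochord cells at 471, 657, 299.7 and 220.4 CPM. Yolk syncytial layer markers were higher in 3 of 4 libraries and summed to 5521, 2498, 5043 and 3253 CPM against 1833, 1806, 2864 and 3580 CPM, most of it apoeb, at 5119.8, 2204, 4687 and 2870.0 against 1799, 1765, 2811 and 3551 CPM. Its defining marker mxtx2 was at 0, 0, 3.42 and 0 CPM against 0.581, 1.4, 0.236 and 1.83 CPM, and the part of yolk RNA in the apoeb level was not tested. Apoptotic and stress markers were below the rest in every library in sum, at 2655, 2698, 2989 and 1052 against 3596, 3589, 3919 and 2997 CPM.

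The deposited prechordal plate trajectory follows cells from early, unspecified states to the prechordal plate, and it held 135 of the 143 cells. Along its pseudotime the marker genes differed in how early they were seen. In 30% epiboly A, gsc was already at 301 and chrd at 266 CPM between 260 and 290 (18 cells, none prechordal plate). There fzd8b and ripply1 were at 17.7 CPM each and frzb had no UMI. The sum held 56448 UMIs, so the missing frzb UMI does not show a later start. In the same bin of 30% epiboly B frzb was at 17.4 CPM. Trajectory cells between 290 and 310 (59 cells, 1 of them prechordal plate) held gsc at 919 CPM, nog1 at 609 CPM and chrd at 458 CPM, but frzb at 33.6, fzd8b at 46.2 and ripply1 at 8.396 CPM. Between 310 and 320 (26 cells, 4 prechordal plate), gsc stood at 3556, frzb and fzd8b at 273 each and ripply1 at 173 CPM. Between 320 and 330 (15 cells, 12 prechordal plate), gsc was at 4858, nog1 at 1986 and chrd at 1219 CPM, and frzb had reached 669, fzd8b 669 and ripply1 570 CPM.

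In 50% epiboly A the bins showed a similar picture. Between 290 and 310 (10 cells), gsc stood at 1505 CPM and chrd at 842 CPM, with ripply1 at 0 and klf17 at 25.5 CPM. From 330 on (63 cells, 62 prechordal plate), gsc was at 4008, fzd8b at 1723, ripply1 at 1212 and klf17 at 951 CPM. The notochord gene noto ran the other way, at 714 CPM in the first of these bins and 77.8 CPM in the last. In 30% epiboly A it was at 425 CPM between 260 and 290, 651 CPM between 290 and 310 and 157 CPM between 320 and 330. In 30% epiboly B, where the last bin ended at 320, noto rose from 244 through 354 to 646 CPM. Pseudotime was computed from total expression of these cells, so the order is a description and not a test, and bins of different libraries hold different numbers of cells.

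**Figure D3:**
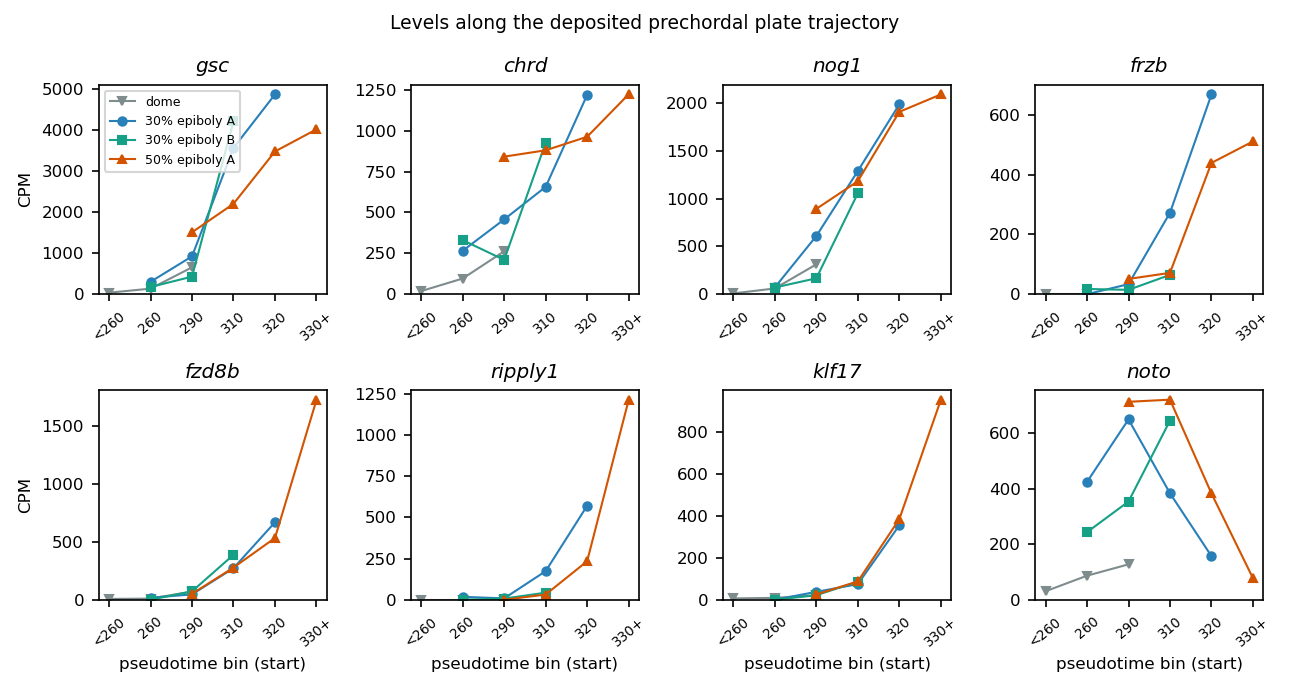
CPM (y axis) of 8 genes in cells of the deposited prechordal plate trajectory, summed per library and pseudotime bin (x axis, start of the bin in pseudotime units; bins with 10 or more cells), with no error bars. The genes gsc and chrd are present from the first bin of the 30% epiboly libraries, at 260, frzb, fzd8b, ripply1 and klf17 rise in later bins, and noto is lowest in the last bin of both A libraries.

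The second measurement, the labeled fraction, did not enter the clustering and could be tested. Over all RNA it also depends on which genes the cells express, which the clustering used. The value over all RNA is therefore not independent of the annotation. The values over the same genes and gene by gene are not fully independent of it either. They take genes with 20 or more UMIs in the prechordal plate sum, and the same-gene mean is weighted by those UMIs. Genes high in these cells thus enter more readily. For a gene whose total level differs between the cells, the labeled fraction can differ with it. Over all RNA, 43.3%, 33.1%, 52.7% and 49.6% of UMIs were labeled in prechordal plate cells, against 38.2%, 32.1%, 51.1% and 34.6% in the other cells. The prechordal plate was higher in 4 of 4 libraries, by 5.13, 1.05, 1.54 and 15.0 points. The mean difference was 5.69 ± 6.48 percentage points (SD, n = 4; two-sided exact sign-flip p = 0.13, the smallest p that 4 libraries allow). The largest value came from the 5 cells of 50% epiboly B, and without that library the mean was 2.57 points.

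Over the same genes the difference was smaller. For genes with 20 or more UMIs in both sums, it was 2.27 points (489 genes), -0.38 (511 genes), 0.57 (871 genes) and 7.88 (70 genes). The mean was 2.58 ± 3.70 points (SD, n = 4; exact sign-flip p = 0.25), higher in 3 of 4 libraries, and without 50% epiboly B it was 0.82 points. Against other cells within 20 pseudotime units of the median prechordal plate cell, the mean over the same genes was 0.62 ± 2.79 points (exact sign-flip p = 0.75, n = 4), higher in 2 of 4 libraries. In the matched comparison over all RNA, the mean was 1.73 points, with 30% epiboly B and 50% epiboly A below the comparison cells. Against notochord cells the prechordal plate was higher over all RNA in 4 of 4 libraries, with a mean of 8.83 ± 8.94 points (exact sign-flip p = 0.13, n = 4). The differences were 7.10, 3.14, 3.13 and 21.9 points, the largest again from 50% epiboly B. Over the same genes the mean against notochord cells was 3.75 ± 5.42 points (exact sign-flip p = 0.25, n = 4), higher in 3 of 4 libraries.

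**Figure D4:**
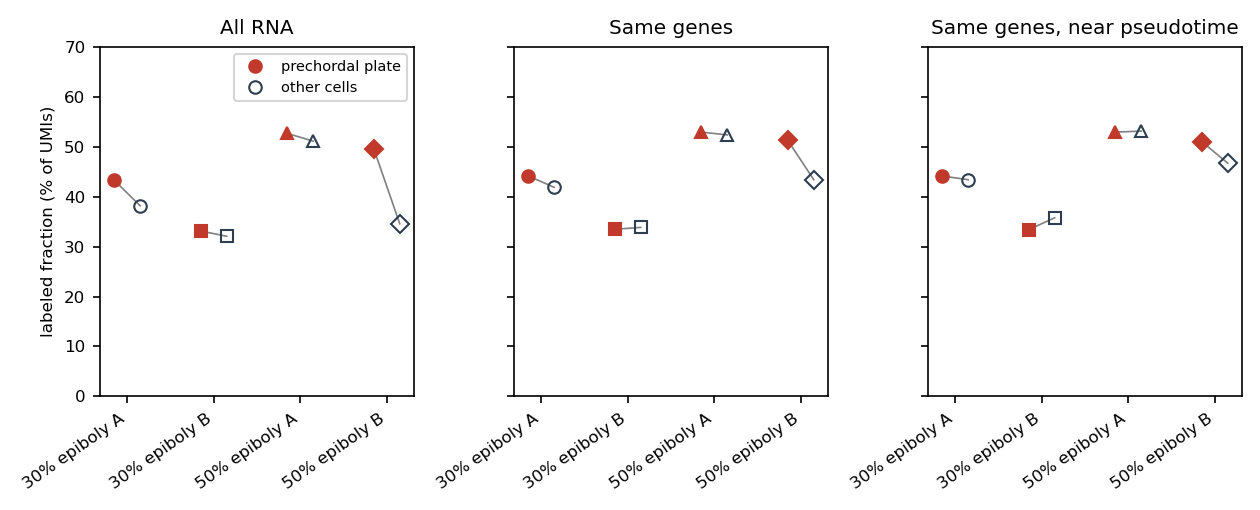
Labeled fraction (y axis, % of UMIs) of prechordal plate cells (filled) and comparison cells (open) in each epiboly library, over all RNA, over the same genes, and over the same genes against cells of near pseudotime; lines join the values of 1 library and there are no error bars. The gap in 50% epiboly B, with 5 prechordal plate cells, is the widest in each panel, and in the right panel 2 of 4 libraries lie the other way.

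Most copies of several genes that were high in prechordal plate cells were labeled. The fractions in other cells are not given here, so these values describe the prechordal plate cells alone. The labeled fraction of gsc was 98.3%, 100.0%, 98.6% and 92.1% in prechordal plate cells. For nog1 it was 93.0%, 98.1%, 90.4% and 86.4%, and for the transcription factor xbp1 of the unfolded protein response 95.5%, 94.4%, 95.8% and 96.1%. In the libraries with enough UMIs, fzd8b was at 89.3%, 98.2% and 94.1%, ism1 at 95.9%, 100.0% and 91.3% and chrd at 80.0%, 83.3% and 87.3%. The maternal control h1m, a linker histone gene, was at 0% in the 3 larger libraries, at the other end of the scale.

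Gene by gene, 2 of 412 genes (0.485%) differed in labeled fraction between prechordal plate and other cells at a false discovery rate of 5% (limma on paired differences), 1 in each direction. The fit needs 3 libraries with enough UMIs, so leaving out 30% epiboly A, 30% epiboly B or 50% epiboly A left 70 genes to test. Of these, 1 (ctsla) was called without 30% epiboly A and 0 without 30% epiboly B or 50% epiboly A. Without 50% epiboly B 0 of 412 genes were called. The other gene called in the full fit, anp32e, had no value in the fits of 70 genes. Without adjustment, 50 of the 412 genes of the full fit had a p under 0.05. The genes are those with 20 or more UMIs in both sums in 3 or more libraries, and the median difference over them was 0.19 points.

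The gene with the higher labeled fraction was ctsla (ENSDARG00000007836), which encodes the lysosomal protease cathepsin L. It was labeled at 45.3%, 32.2%, 41.6% and 37.1% in prechordal plate cells and at 22.2%, 17.3%, 26.8% and 13.2% in other cells, higher in 4 of 4 libraries. The difference was 16.9 ± 1.72 points (SE, limma adjusted p = 0.0491). Its total level was within 10% of the other cells in every library, at 4852, 4087, 3708 and 2679 against 4623, 3778, 3615 and 2803 CPM. Split by the labeled fraction, the unlabeled part was 2653, 2769, 2167 and 1686 CPM in prechordal plate cells against 3595, 3125, 2647 and 2432 CPM, lower in every library, and the labeled part was 2199, 1318, 1541 and 993 CPM against 1028, 654, 967 and 371 CPM, higher in every library. In notochord cells ctsla was labeled at 5.45% to 22.4%, in neural ectoderm cells at 8.85% to 20.3%, in endoderm (A) cells at 29.7% to 52.3%, in endoderm (B) cells at 56.8% to 84.4%, in muscle and blood cells at 28.5% to 37.5% and in the type named as yolk syncytial layer contamination at 32.9% to 77.2% (lowest and highest library). The prechordal plate range overlapped that of endoderm (A), and endoderm (B) lay above it.

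The call was close to its threshold. The adjusted p of ctsla ranged from 0.00079 to 0.229 over the alternatives, and it was 0.0546 against cells of near pseudotime, where the difference was 13.6 points. The difference kept its sign under every alternative run. It was 15.0 to 19.9 points when 1 library at a time was left out.

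The gene with the lower labeled fraction was anp32e (ENSDARG00000054804), which encodes a histone chaperone that acts on the variant H2A.Z. It was labeled at 25.0%, 12.1% and 38.9% in the 3 larger libraries against 43.5%, 27.7% and 54.2% in other cells, lower in 3 of 3. The difference was -15.9 ± 1.38 points (SE, limma adjusted p = 0.0491). Total anp32e was 1405, 1563, 1524 and 1148 CPM against 1847, 1727, 2164 and 1365 CPM, lower in every library, and the unlabeled part was 1055, 1374 and 931 against 1043, 1249 and 991 CPM, above the other cells in 2 of 3. Other types had low labeled fractions of anp32e too, with 8.02% to 28.4% in endoderm (B), 14.3% to 43.2% in endoderm (A) and 11.3% to 30.9% in enveloping layer cells, against 36.5% to 58.7% in neural ectoderm. The labeled part of anp32e in prechordal plate cells, at 351, 189 and 592 against 804, 478 and 1172 CPM, was lower in all 3. Its relative anp32b lay in the same direction at -11.3 ± 1.69 points but did not pass (adjusted p = 0.128). The adjusted p of anp32e was between 0.0161 and 0.229 over the alternatives that gave a value.

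The remaining genes of lowest p did not pass the threshold and are given by value. For fscn1a, 91.5%, 81.4% and 95.5% of copies were labeled in the 3 larger libraries against 69.4%, 52.2% and 83.0% in other cells, a difference of 17.1 ± 3.33 points (adjusted p = 0.171). The unlabeled level of fscn1a was 220.3, 451 and 116 CPM against 243, 367 and 146 CPM, while the labeled level was 2367, 1967 and 2448 against 551, 401 and 712 CPM. By this estimate the labeled level was higher in all 3 and the unlabeled level in 1 of 3. It applies the fraction of pairs with 3 or more UMIs to all UMIs. For xbp1, where 89.8%, 89.1%, 90.1% and 96.0% were labeled in other cells, the difference was 5.54 ± 0.963 points (adjusted p = 0.128), and its total was 2789, 2965, 3136 and 3348 against 363, 431, 339 and 389.7 CPM. Both genes passed with pairs of 1 or more UMIs, where the differences were 25.3 points for fscn1a (limma adjusted p = 0.0190) and 16.3 points for xbp1 (0.0101), and on the arcsine square root scale (0.00079 and 0.0261). Over all alternatives the adjusted p ran from 0.00079 to 0.266 for fscn1a and from 0.0101 to 0.515 for xbp1. Labeled fscn1a was 84.95% to 93.2% in endoderm (A), 76.8% to 92.6% in muscle and blood and 61.5% to 87.04% in notochord cells. In neural ectoderm cells it was 26.9% to 68.1%. For xbp1, notochord cells were at 91.5% to 95.5%, muscle and blood at 91.5% to 97.3% and neural ectoderm at 70.3% to 81.2%. For both genes the prechordal plate range overlapped those of the types given here, except neural ectoderm.

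The profilin gene pfn1, whose product binds actin monomers, was labeled at 0%, 0% and 18.2% in the 3 larger libraries against 61.5%, 26.0% and 76.0% in other cells (difference -50.2 ± 8.13 points, adjusted p = 0.128, on 22 to 35 UMIs in pairs per prechordal plate sum). It passed on the arcsine square root scale (adjusted p = 0.00393) and ran up to 0.266 elsewhere. Among other cells, the enveloping layer held pfn1 at 2767 to 5531 CPM and labeled at 90.8% to 100.0%, and notochord cells were labeled at 0% to 5.93%. The prechordal plate and notochord ranges overlapped. The myosin light chain gene myl12.1 was at -11.5 ± 2.02 points, cmtm6 at 18.7 ± 2.35, the splicing factor gene tra2a at 19.3 ± 2.82, the chromatin remodeler gene smarca4a at 12.4 ± 2.04 and hmgb1b at 18.7 ± 3.62 points. All were the same sign in each library tested, with adjusted p between 0.128 and 0.171.

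The other 9 named genes were actb2, hspa8 and sec61b, with positive differences of 4.15 to 10.8 points, and rps27.1, hnrnpa0b, pcna, khdrbs1a, rpl29 and gtf2h5, with negative differences of -4.002 to -11.6 points. None passed (adjusted p from 0.128 to 0.259). Of the genes on the lists, 4 prechordal plate transcription factors, 4 secreted antagonists and 4 cell cycle genes could be tested, and none was called. Of the 412 genes, 70 were higher in prechordal plate cells in every library they were tested in and 61 lower.

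**Figure D5:**
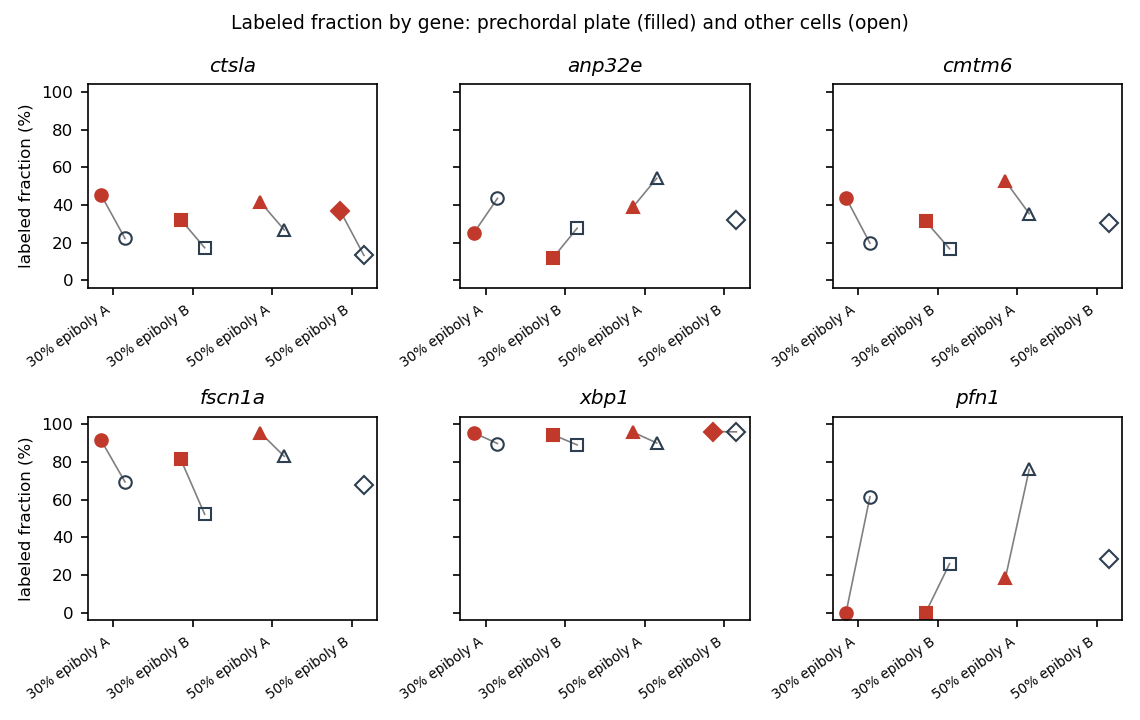
Labeled fraction (y axis, %) of 6 genes in prechordal plate cells (filled) and other cells (open) of each epiboly library; lines join the values of 1 library, points with fewer than 20 UMIs are left out, and there are no error bars. Only ctsla and anp32e passed the 5% threshold; ctsla was higher in 4 of 4 libraries and anp32e lower in 3 of 3.

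Between stages, the labeled fraction of prechordal plate cells was 43.3% and 33.1% at 30% epiboly and 52.7% and 49.6% at 50% epiboly, with no overlap. The difference was 12.9 points (two-sided exact permutation p = 0.33, n = 2 libraries a stage, the smallest p possible), and it was 9.39 points within the A libraries and 16.5 points within the B libraries. Without 30% epiboly B it was 7.85 points. In the other cells the same difference was 7.74 points, and whether both stage differences differ was not tested.

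Total expression of prechordal plate cells gave no stage difference past the threshold. Of 1509 genes, 0 (0%) passed at a false discovery rate of 5% (edgeR quasi-likelihood test, n = 2 libraries a stage), 69 had an unadjusted p under 0.05, and DESeq2 also called 0, with 10 at an unadjusted p under 0.05. Without 50% epiboly A, 5 genes passed (rpl7, hspb1, lmnb1, apoc1 and rhov), and without 50% epiboly B 2 did (hsp70.3 and hsp90aa1.2), with the lone library of that stage assumed to vary like the others. The marker gsc was at 5075 and 5769.8 CPM at 30% epiboly and 3982 and 4114 CPM at 50% epiboly.

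The genes of lowest p in the stage comparison are values only. The heat shock gene hspb1 was at 2164, 1416, 3465 and 11384 CPM (log2 change 1.97 ± 0.43, SE, edgeR adjusted p = 0.542), the Wnt receptor gene fzd7a at 123, 93.5, 305 and 765 CPM (1.88 ± 0.54) and admp, a BMP family ligand gene of the organizer, at 134, 93.5, 315 and 478 CPM (1.63 ± 0.50). Without 50% epiboly B the hspb1 change was 1.06, and without 50% epiboly A it was 2.59. In hspb1, fzd7a and admp both 50% epiboly values lay above both 30% epiboly values. They were picked by p in this same comparison, so the separation follows largely from that choice. How many of all tested genes separate in this way was not counted. The apelin receptor gene aplnra and shisa2a were at 33.5, 26.7, 123 and 765 and 413, 240.4, 781 and 765 CPM. Lower at 50% epiboly were the values of lft2, at 513, 467, 202 and 0 CPM, anxa5b at 390.4, 387, 161 and 95.7 and the phosphatase gene acp5a at 502, 508, 223 and 95.7 CPM, with mdc1 and slc16a3 beside them. All but hspb1 had an edgeR adjusted p of 0.9904. Other cells had hspb1 at 2529, 1461, 3463 and 4473 CPM.

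The test of whether the change between stages differed between prechordal plate and other cells made no call, which does not show that the changes were alike. Of 4829 genes, 0 (0%) passed in the edgeR interaction test, 118 had an unadjusted p under 0.05, and DESeq2 called 0, with 22 at an unadjusted p under 0.05. Without 50% epiboly A, 17 genes passed, and without any other library 0. The named genes with UMIs in every library were ripply1, psma1, efnb2a and otx1. The ripply1 level was 736, 695, 863 and 1148 CPM in prechordal plate cells and 2.03, 3.86, 12.1 and 14.6 CPM in other cells (difference of log2 changes -2.01 ± 0.55, SE, edgeR adjusted p = 0.704). With notochord cells as comparison this value turned to 1.02. The proteasome gene psma1 was at 134, 120.2, 54.8 and 95.7 against 40.2, 28.1, 76.5 and 56.7 CPM (-2.34 ± 0.64, adjusted p = 0.704). For otx1 the difference was 1.66 ± 0.58, with an edgeR adjusted p of 1. The ephrin gene efnb2a was at 479.6, 601, 445 and 287 CPM against 23.7, 30.2, 58.1 and 14.6 CPM. The other 6 (sptssa, zgc:153116, chchd1, mark3a, slc3a2b and pebp1) had no UMI in 2 or 3 prechordal plate sums, and no fold change is given for them.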

How the data were processed

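Drop-seq libraries of IAA-treated zebrafish embryos were counted by the authors with Drop-seq tools and Bowtie2 on an Ensembl Zv10 reference, and the deposited UMI counts (20920 genes after removal of 4 injected RNAs, 8226 cells with 500 or more genes each) are raw. The deposited labeled fraction is the share of a gene's UMIs in a cell that the authors estimated with GRAND-SLAM on GRCz11 to be newly transcribed. The deposited pseudotime score was computed by the authors with URD. Cell types were taken from the deposited annotation. No doublets were removed, and 7 per-cell columns were not used.

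Counts were summed over prechordal plate cells and over the other cells of each library and expressed as CPM. Level ratios are log2((CPM + 1)/(CPM + 1)) and understate changes of low genes. Labeled fractions were averaged over gene and cell pairs with 3 or more UMIs, weighted by UMIs, over genes with 50 or more UMIs in all cells. Labeled and unlabeled levels multiply the CPM over all UMIs by this fraction, so they are estimates. Library means were compared with exact permutation and sign-flip tests, labeled fractions per gene with limma 3.58.1, and summed counts between stages with the quasi-likelihood test of edgeR 4.0.16 (DESeq2 1.42.0 as alternative; R 4.3.3, Python 3.11.15), all with Benjamini-Hochberg adjustment. The fits were tested on simulated data. Alternatives changed the minimum of UMIs, pseudocount, weights, scale, comparison cells, size factors, filter and libraries.

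Named genes were the list members a result turned on, the 15 highest and 10 lowest by mean level ratio with 1 sign in every library (50 or more UMIs measured or expected), the 10 of lowest p per direction in the labeled fraction fit and the 5 per direction in each stage fit. The cells and the lists were chosen with earlier results of these data known, and 1 list member is not reported here by name. The letters A and B also mark 2 methods of dissociation, a batch that is crossed with stage, and fits with the letter as a block are among the alternatives. Intervals and floors cover counting error only.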

Additional observations from a re-analysis of the deposited data

Results flagged for a closer look

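The dome library, which entered no comparison, held 3 cells named prechordal plate with 11630 UMIs together. In their sum gsc was at 3439 CPM (40 UMIs, with 5, 9 and 26 in the 3 cells), against 49.7 CPM in the other dome cells, and chrd was at 859.8 CPM (10 UMIs, with 2, 3 and 5), against 36.3 CPM. Both exceeded the 258 CPM that a count of 0 allows there. The genes ripply1 and fzd8b were at 1978 CPM (23 UMIs, with 1, 4 and 18) and 945.8 CPM (11 UMIs, with 0, 3 and 8), so 1 cell gave most UMIs of each. The 3 cells had a median pseudotime of 331.0, against 281.0 in the other dome cells, and 2 of the 3 held both mCherry mRNAs, against 25.9% of the other dome cells. The part of such cells in these levels was not tested.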

How the results depend on the processing

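The differences in labeled fraction over all RNA and over the same genes stayed positive in the mean under every alternative run. The number of genes called in labeled fraction, 2, became 0 without weights, 9 with pairs of 1 or more UMIs, 0 with 50 UMIs behind a value, 10 on the arcsine square root scale and 0 against cells of near pseudotime, and was 0 to 1 with 1 library left out. Leaving out 30% epiboly A, 30% epiboly B or 50% epiboly A also cut the genes tested from 412 to 70. The cause of the other changes was not tested. The stage comparison went from 0 to 1 gene (hsp70.3) without a filter on low counts and from 0 to 5 with 1 library left out, and the interaction from 0 to 17. Without a minimum of UMIs, 943 genes in place of 26 were 2-fold lower in every library, since unmeasured genes then enter, and 78 in place of 55 were higher. The share difference of 0.67 points ranged from -0.0363 to 1.38 with 1 library left out. Among single genes, the interaction value of ripply1 turned to 1.02 against notochord cells and that of chchd1, which had no UMI in 3 prechordal plate sums, ranged from -0.46 (without 50% epiboly A) to 10.27 with 1 library left out and is no bound. Of the other values of single genes, 115 of labeled fraction kept their side of the threshold, 11 passed it and 10 lost it. With pairs of exactly 3 UMIs, 50% epiboly B gave no value over the same genes. Leaving out cells with a sox32 UMI or both mCherry mRNAs, chosen after seeing the data, gave 6.28 points over all RNA and 2.84 over the same genes.

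With the replicate letter as a block, the stage fit called 0 genes, the stage difference in labeled fraction was 12.9 points (exact sign-flip p = 0.5) and the share difference 0.67 points. The letter also marks the method of dissociation, so the block holds that batch constant, with 2 pairs. Depth limits 50% epiboly B most, where 5 cells gave 70 genes for the same-gene comparison.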

Other observations

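Some of the highest genes have roles outside BMP and Wnt signaling. The insulin gene insb was at 881, 668, 1054 and 1531 CPM in prechordal plate cells against 40.9, 27.0, 72.8 and 86.0 CPM in other cells, and the phosphatase gene dusp4, which limits MAP kinase signaling, at 145, 321, 130.1 and 95.7 against 12.6, 13.3, 20.1 and 0 CPM. The ephrin ligand gene efnb2b was at 123, 147, 226 and 383 against 6.68, 5.27, 21.0 and 14.6 CPM, and the sphingosine-1-phosphate receptor gene s1pr5a at 66.9, 80.1, 134 and 95.7 against 3.77, 3.16, 8.36 and 5.49 CPM. All 4 were higher in every library, which was a condition for naming them. In 50% epiboly B the dusp4 and s1pr5a levels are those of a single UMI.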
